A study of Mus musculus with 10 samples.

Results

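Kainate receptors, the delta receptor gene Grid1 and the Neto auxiliary subunits were followed in 10 single neurons of the mouse nucleus of the solitary tract. The group was set by symbol and holds 8 of the 25006 genes in the count tables: the kainate subunits Grik1, Grik2, Grik3, Grik4 and Grik5, the delta subunit Grid1, and the auxiliary subunits Neto1 and Neto2. All 8 were matched by Ensembl identifier. Each library came from the cytoplasm and nucleus of 1 patch-aspirated cell, taken from slices of 3-month-old C57BL/6 mice that carried LepRb-Cre and Halo-eYFP, so that cells with leptin receptor Cre activity fluoresce. The labels sort 5 neurons into the type1 firing property (1-1, 1-2, 4-3, 8-2 and 9-1) and 5 into the type2 firing property (6-2, 10-1, 10-3, 9-2 and 9-4), do not define those properties, and list no treatment. The comparison asks how the receptor genes differ between the firing types.

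Ionotropic glutamate receptors are channels built from 4 subunits. Among kainate receptors, the proteins of Grik1, Grik2 and Grik3 (GluK1, GluK2 and GluK3) can form channels on their own, whereas those of Grik4 and Grik5 (GluK4 and GluK5) bind the agonist kainate with higher affinity and reach the membrane as working channels only together with one of the first group. Neto1 and Neto2 are single-pass membrane proteins with CUB domains that slow the gating of kainate receptors and take part in their placement. Delta receptors share the fold of the family but act mainly as synaptic adhesion molecules, bridging through cerebellins to presynaptic neurexins.

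How the subunits are related is visible in the coding sequence of the pore loop, shown because it sets Grik1 and Grik2 apart from Grik4 and Grik5, the division along which the levels are described. Each line gives 60 bases of the coding strand, 5′ to 3′, from the GENCODE M21 transcript with the longest coding sequence on GRCm38. The capitals mark the glutamine codon that corresponds to the glutamine/arginine (Q/R) site, where RNA editing by adenosine deaminases is known in the Grik1 and Grik2 transcripts.
Grik1: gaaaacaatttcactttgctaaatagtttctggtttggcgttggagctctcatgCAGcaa
Grik2: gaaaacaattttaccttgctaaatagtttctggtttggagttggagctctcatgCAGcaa
Grik3: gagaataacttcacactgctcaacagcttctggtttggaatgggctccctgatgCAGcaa
Grik4: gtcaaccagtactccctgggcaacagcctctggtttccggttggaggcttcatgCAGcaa
Grik5: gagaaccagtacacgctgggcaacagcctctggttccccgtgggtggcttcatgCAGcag
Grid1: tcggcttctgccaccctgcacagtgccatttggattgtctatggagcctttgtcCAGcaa

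These stretches lie in exon 13 of Grik1 (chr16:87940539-87940598, minus strand), exon 13 of Grik2 (chr10:49244326-49244385, minus), exon 12 of Grik3 (chr4:125691153-125691212, plus), exon 16 of Grik4 (chr9:42547620-42547679, minus), exon 15 of Grik5 (chr7:25022494-25022553, minus) and exon 11 of Grid1 (chr14:35450336-35450395, plus). In this window Grik1 and Grik2 share 57 of 60 bases and Grik4 and Grik5 share 51, while Grik1 and Grik5 share 39 and Grid1 shares at most 31 with any kainate subunit. Over the whole translated protein, identity was 78.5% between Grik1 and Grik2, 70.6% between Grik4 and Grik5, 44.8% between Grik1 and Grik5, and 58.4% between Neto1 and Neto2. The count tables hold reads per gene and no base calls, so the edited share of the marked codon could not be read from them.

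Library totals ran from 9796799 to 41844825 gene counts, and levels are given as CPM, the reads of a gene scaled to 1000000 reads of the library. The shallow libraries, with fewer than 20000000 counts, were 1-1, 1-2, 4-3 and 6-2. Detection of a gene in a neuron required 10 CPM and 3 counts. A difference is the mean of log2(CPM + 1) in type 2 less that in type 1. No animal, slice or culture is named for any neuron, so each firing type counts as 1 sample, SDs give the spread between 5 cells, intervals cover counting error alone, and the types were compared without a test. Of 6 neuronal markers, 4 to 6 were detected in each neuron, with Snap25 between 1546 and 3123 CPM, although Rbfox3 was under 1 CPM in 6-2 and 9-2. Lepr, the gene behind the reporter, ranged from 1.15 to 122 CPM in type 1 and from 0.890 to 50.7 CPM in type 2, and 1-2, 8-2, 9-1 and 9-4 were below 10 CPM. Microglial transcripts were uneven: the 14 listed genes summed to 0.0668 to 807 CPM in type 1 and 4.25 to 1846 CPM in type 2, each with the higher mean in type 2. The neurons 6-2 and 9-4 passed detection for 13 of the 14 and 9-2 for 7. The 12 listed oligodendrocyte lineage genes summed to 2.00 to 1045 CPM in type 1 and 39.2 to 220 CPM in type 2. The highest sum was in 9-1, with Mbp at 578 CPM and Cnp at 455 CPM. Detection was passed by 3 of the 12 in 9-1, 6-2, 10-3 and 9-4. The part of these transcripts in the levels of the members was not tested.

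Of the 8 genes, 7 had a mean of at least 1 CPM over the 10 neurons, the level used for counting differences; Grik3 did not. Of these 7, 3 had the higher mean in type 1 and 4 in type 2, with a median difference of 0.71 against 0.24 over all 11923 genes at that level. A difference of at least 2-fold was reached by 1 member toward type 1 (Grik1) and by 3 toward type 2 (Grik5, Neto2 and Neto1), where 21.6% and 31.1% of all measured genes did so in those directions. As counts out of 7, these are near the background of the libraries. No member had ranges that stayed apart between the types, which 1.44% of measured genes did with type 2 above and 0.587% with type 1 above.

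**Figure D1:**
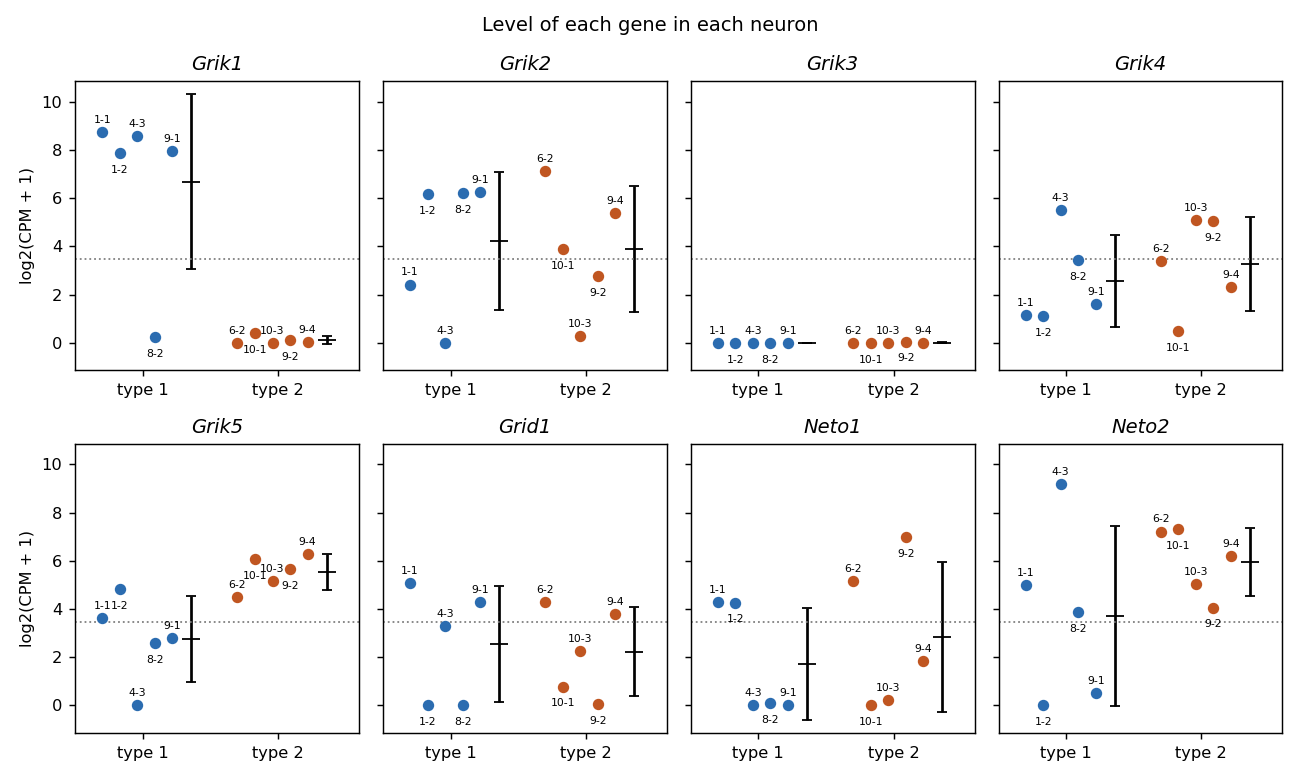
Level of the 8 genes in each neuron, as log2(CPM + 1) on the vertical axis, with type 1 neurons in blue and type 2 neurons in orange. Each point is 1 neuron named as in the labels, the black bar is the mean with 1 SD between the 5 neurons, and the dotted line marks 10 CPM; Grik1 lies high in 4 type 1 neurons and near 0 elsewhere, and Grik5 lies above the line in all 5 type 2 neurons.

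Grik1 (ENSMUSG00000022935, GRCm38 chromosome 16, 87895900 to 88290265, minus strand) encodes GluK1, a subunit that forms channels alone or with others. It was at 434 CPM in 1-1, 234 in 1-2, 384 in 4-3, 0.167 in 8-2 and 249 in 9-1. The type 2 neurons had 0, 0.336, 0, 0.0701 and 0.0318 CPM in 6-2, 10-1, 10-3, 9-2 and 9-4. So 4 type 1 neurons were high and the remaining type 1 neuron, 8-2, lay within the type 2 range although its library was the deepest of the 10. The difference was -6.57 (260 ± 169 against 0.0877 ± 0.142 CPM, SD, n = 5 neurons each). With the reads of each type pooled, Grik1 made 190.6 CPM of the type 1 total, with a Poisson 95% interval of 188 to 193, and 0.113 CPM of the type 2 total, with an interval of 0.0660 to 0.181. Detection was in 4 of 5 type 1 neurons, a share of 80% with a Clopper-Pearson 95% interval of 28.4 to 99.5%. It was in 0 of 5 type 2 neurons, with an interval of 0 to 52.2%. Such intervals, here and for the other members, treat the 5 neurons as independent, which the labels do not establish. Detection in at least 4 type 1 neurons and no type 2 neuron was found in 0.461% of measured genes, a rule counted after the Grik1 values had been seen. Within the libraries above 20000000 counts, where 8-2 is 1 of 2 type 1 neurons, the difference was -3.95. Within the libraries below that total, where 6-2 is the only type 2 neuron, it was -8.41.

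Grik2 (ENSMUSG00000056073, chromosome 10, 49094833 to 49788766, minus strand) encodes GluK2, the closest relative of GluK1 in the group. Its type 1 levels were 4.34, 71.5, 0, 72.2 and 74.8 CPM in 1-1, 1-2, 4-3, 8-2 and 9-1, and its type 2 levels 139.8, 13.8, 0.221, 5.82 and 41.0 CPM in 6-2, 10-1, 10-3, 9-2 and 9-4. Each type thus held neurons above 40 CPM beside neurons under 1 CPM, and the ranges overlapped widely. The gene was detected in 3 of 5 neurons of each type (60.0%, 14.7 to 94.7%), and its difference of -0.31 (44.6 ± 38.8 against 40.1 ± 57.9 CPM) was far smaller than the spread between cells. The sign was not stable: it was -3.13 in the libraries above 20000000 counts and 4.27 in those below, where 6-2 is the only type 2 neuron, and it was positive without 1-2, 8-2, 9-1 or 10-3.

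Grik3 (ENSMUSG00000001985, chromosome 4, 125490700 to 125714173, plus strand), which encodes GluK3, had 1 count in all, in 9-2. By sequencing depth alone, 0 counts allow up to 0.0717 CPM in 8-2 and up to 0.306 CPM in 4-3 (3 counts of the library total). Of the 3 genes whose proteins can form kainate channels alone, only Grik1 and Grik2 were therefore detected in these libraries.

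Grik4 (ENSMUSG00000032017, chromosome 9, 42518135 to 42944493, minus strand) and Grik5 (ENSMUSG00000003378, chromosome 7, 25009849 to 25072346, minus strand) encode the high-affinity subunits GluK4 and GluK5. Grik5 was at 11.2, 27.6, 0, 4.95 and 5.89 CPM in 1-1, 1-2, 4-3, 8-2 and 9-1, and at 21.4, 66.5, 34.6, 49.8 and 77.5 CPM in 6-2, 10-1, 10-3, 9-2 and 9-4. All type 2 neurons but 6-2 exceeded every type 1 neuron, and 1-2 exceeded 6-2, which was the extent of the overlap. The difference was 2.77 (9.94 ± 10.7 against 49.9 ± 22.8 CPM), with detection in 2 of 5 type 1 neurons (40.0%, 5.27 to 85.3%) and 5 of 5 type 2 neurons (100%, 47.8 to 100%). With reads pooled, Grik5 made 8.43 CPM of the type 1 total (7.90 to 8.99) and 54.2 CPM of the type 2 total (53.1 to 55.4). Detection in all type 2 and at most 2 type 1 neurons was found in 2.3% of measured genes, again a rule counted after the values had been seen. Without 6-2, 9-2 and 9-4, the 3 type 2 libraries with most microglial transcripts, the Grik5 difference was 2.85, with only 10-1 and 10-3 left in type 2. The type 1 neuron 1-2, at 807 CPM of those markers against 524 CPM in 9-2, was kept. The Grik5 difference was 3.12 in the libraries above 20000000 counts, where type 1 is 8-2 and 9-1 alone. It was 1.67 in those below, where type 2 is 6-2 alone. The summed level of 10 astrocyte markers also lay higher in type 2, at 1044.5 to 1775 CPM against 149.8 to 673 CPM, of which Aldoc alone gave 856 to 1775 CPM in type 2. Of the 10 markers, 1 to 3 were detected in each type 1 neuron, 5 in 6-2, 3 in 9-4 and 1 in each other type 2 neuron. Sox9 was at 102 CPM in 6-2 and 52.0 CPM in 9-4, Gfap at 56.1 CPM and Slc1a2 at 20.7 CPM in 6-2, and Aldh1l1 at 51.0 CPM in 9-4. In type 1, Slc1a2 was at 30.6 CPM in 4-3 and Gfap at 15.6 CPM in 9-1. S100b went the other way, at 73.9 CPM in 4-3, 31.6 CPM in 9-1 and 11.5 CPM in 1-2, against at most 10.1 CPM in type 2. Slc1a3 and Gjb6 were at 0 in all 10 neurons and Aqp4 was at most 0.445 CPM. The part of these transcripts in the Grik5 difference was not tested.

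Grik4 was uneven in both types. Its levels were 1.20, 1.15, 45.1, 9.82 and 2.04 CPM in 1-1, 1-2, 4-3, 8-2 and 9-1, and 9.51, 0.409, 33.1, 32.0 and 4.01 CPM in 6-2, 10-1, 10-3, 9-2 and 9-4. Only 4-3, 10-3 and 9-2 passed the detection level, so 1 type 1 neuron (20%, 0.505 to 71.6%) and 2 type 2 neurons (40.0%, 5.27 to 85.3%) did. The difference of 0.71 (11.9 ± 18.9 against 15.8 ± 15.6 CPM) was smaller than the spread between cells. In 4-3, the type 1 neuron with most Grik4, Grik5 had 0 counts.

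Since longer transcripts give more reads, levels were compared between subunits only per kilobase (kb) of merged exon. On that scale the summed level of Grik1 to Grik5 was 67.3, 45.8, 64.7, 8.08 and 44.1 CPM per kb in the type 1 neurons 1-1, 1-2, 4-3, 8-2 and 9-1, and 12.3 to 18.8 CPM per kb in type 2. The 4 type 1 neurons with Grik1 lay above all others, and 8-2 lay below every type 2 neuron. Grik1 made up 96.0, 76.1, 88.3 and 83.8% of that sum in 1-1, 1-2, 4-3 and 9-1, 0.308% in 8-2 and at most 0.357% in type 2. Grik5 made up 0 to 11.8% in type 1 (5.87 ± 5.51%) and 25.4, 91.7, 54.6, 62.3 and 79.9% in 6-2, 10-1, 10-3, 9-2 and 9-4 (62.8 ± 25.5%). It was the leading subunit in 4 of 5 type 2 neurons and in 0 of 5 type 1 neurons. Its share did not overlap between the types, but its level did, at 5.35 CPM per kb in 1-2 and 4.14 in 6-2. The sum in 1-2 also held 34.9 CPM per kb of Grik1. The share of Grik5 thus depends on Grik1 as well and is not separate from the Grik1 difference. No share of genes with such a pattern was computed for this ratio.

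The neurons 8-2 and 6-2 stood between the 2 patterns. In both Grik2 led the kainate subunits, with 67.5% of the summed level in 8-2 and 64.8% in 6-2, although they carry different firing labels. Counting Grik1, Grik2 and Grik3 together, the subunits that can form channels alone made up 67.8 to 96.6% in type 1 (87.4 ± 11.8%) and 0.136 to 64.8% in type 2 (18.4 ± 26.6%). The type 2 values were 64.8% in 6-2, 7.80% in 10-1, 0.136% in 10-3, 2.94% in 9-2 and 16.5% in 9-4. The ranges did not overlap, but 6-2 and 8-2 differed by less than the spread between cells of either type. Grik4 and Grik5 make up the rest of the sum, so this joint share is not separate from theirs. No share of genes with such a pattern was computed for it either.

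**Figure D2:**
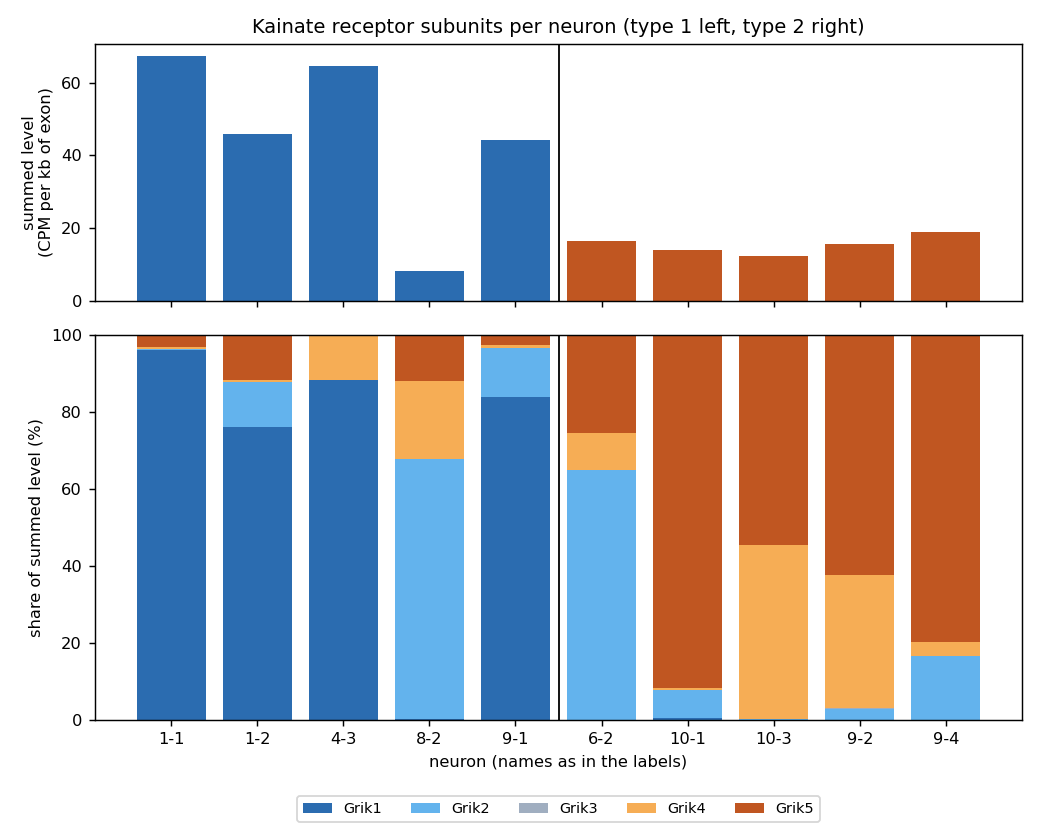
Kainate subunits in each neuron, with the summed level of Grik1 to Grik5 in CPM per kb of merged exon in the upper bars (blue type 1, orange type 2) and the share of each subunit in percent in the lower stacked bars. Grik1 fills 76.1 to 96.0% of 4 type 1 bars, Grik5 fills 54.6 to 91.7% of 4 type 2 bars, and Grik2 leads in 8-2 and 6-2.

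By detection, every neuron had at least 1 kainate subunit, but the pairing of the 2 subunit classes varied. In 6 of 10 neurons a subunit of the first class (Grik1 or Grik2) was detected together with Grik4 or Grik5: 3 of type 1 (1-1, 1-2 and 4-3) and 3 of type 2 (6-2, 10-1 and 9-4). The type 1 neurons 8-2 and 9-1 passed the detection level for the first class alone. In 8-2, Grik4 was at 9.82 CPM (411 counts), just under that level, and Grik5 at 4.95 CPM. In 9-1, Grik4 was at 2.04 CPM and Grik5 at 5.89 CPM. The type 2 neurons 10-3 and 9-2 passed it for Grik4 and Grik5 alone, with Grik2 at 0.221 and 5.82 CPM. Those 2 neurons still had 8 and 166 Grik2 counts, so the missing class was low and not without reads. Grik1 and Grik2 were detected together only in 1-2 and 9-1. The rate of joint detection over other genes was not computed.

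Neto2 (ENSMUSG00000036902, chromosome 8, 85636588 to 85700924, minus strand), an auxiliary subunit of kainate receptors, was at 31.0, 0, 579.6, 13.8 and 0.446 CPM in 1-1, 1-2, 4-3, 8-2 and 9-1. In type 2 it was at 147.9, 159, 31.5, 15.7 and 73.0 CPM in 6-2, 10-1, 10-3, 9-2 and 9-4. The highest level of all was thus in the type 1 neuron 4-3, and the type 2 values lay between the type 1 extremes. Neto2 was detected in 3 of 5 type 1 neurons (60.0%, 14.7 to 94.7%) and 5 of 5 type 2 neurons (100%, 47.8 to 100%). The difference was 2.25 on the log2 scale, while mean CPM was higher in type 1 (125 ± 254 against 85.4 ± 65.6 CPM), so the 2 averages differ in sign. Leaving out 1-2, 9-1 or 4-3 gave differences of 1.32, 1.45 and 3.61. Neto2 shares 20 exon bases with Mir8109 on the opposite strand, which had 10 counts in all.

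Neto1 (ENSMUSG00000050321, chromosome 18, 86394952 to 86506718, plus strand), the other auxiliary subunit, was at 18.6, 18.3, 0, 0.0717 and 0 CPM in 1-1, 1-2, 4-3, 8-2 and 9-1, and at 35.1, 0, 0.166, 125.3 and 2.64 CPM in 6-2, 10-1, 10-3, 9-2 and 9-4. It was detected in 2 of 5 neurons of each type (40.0%, 5.27 to 85.3%), and the ranges overlapped. The difference was 1.12 (7.39 ± 10.1 against 32.6 ± 53.9 CPM), ranged from 0.08 without 9-2 to 1.83 without 10-1, and was -1.62 without 6-2, 9-2 and 9-4. The 2 type 2 neurons with Neto1 also had summed microglial markers of 1846 CPM (6-2) and 524 CPM (9-2), against 4.25 and 47.8 CPM in 10-1 and 10-3. Of the 2 type 1 neurons with Neto1, 1-2 had 807 CPM of those markers and 1-1 had 0.0668 CPM, while 9-4 had 1685 CPM of them with 2.64 CPM of Neto1. The microglial markers Tmem119 and P2ry12 were at 0 in every type 1 neuron, and the part of microglial transcripts in the Neto1 difference was not tested.

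At least 1 Neto gene was detected in 9 of 10 neurons, the exception being 9-1, where Neto1 had 0 counts and Neto2 was at 0.446 CPM beside 249 CPM of Grik1. Both were detected in 1-1, 6-2 and 9-2. No such count was made for other pairs of genes. Among the 4 neurons rich in Grik1, 1-1 had both, 1-2 had Neto1, 4-3 had Neto2 and 9-1 had neither, so no Neto pattern was shared by them.

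Grid1 (ENSMUSG00000041078, chromosome 14, 34820108 to 35583379, plus strand) encodes GluD1. It was at 33.2, 0, 8.88, 0 and 18.8 CPM in 1-1, 1-2, 4-3, 8-2 and 9-1, and at 18.4, 0.721, 3.76, 0.0351 and 12.8 CPM in 6-2, 10-1, 10-3, 9-2 and 9-4. Detection was in 2 of 5 neurons of each type (40.0%, 5.27 to 85.3%), with high and near-zero neurons in both. The difference of -0.31 (12.2 ± 14.1 against 7.15 ± 8.11 CPM) was well within the spread, and it was positive without 1-1, 9-1, 10-1 or 9-2.

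Across the group the order of mean levels per kb also differed between the types. In type 1 it ran from Grik1 (38.7 ± 25.1 CPM per kb) and Neto2 (20.4 ± 41.5) to Grik2 (3.37 ± 2.93), Grid1 (2.04 ± 2.36), Grik4 (1.99 ± 3.18), Grik5 (1.92 ± 2.06) and Neto1 (0.885 ± 1.21). In type 2 it ran from Neto2 (13.9 ± 10.7 CPM per kb) and Grik5 (9.67 ± 4.41) to Neto1 (3.91 ± 6.45), Grik2 (3.03 ± 4.37), Grik4 (2.65 ± 2.62), Grid1 (1.20 ± 1.36) and Grik1 (0.0130 ± 0.0211). Each gap between neighbours in either order was smaller than the larger of the 2 SDs, so neighbouring ranks are not separated.

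Genes known to act with these receptors were counted from 6 lists holding 51 genes, of which 50 were in the tables and 43 had a mean of at least 1 CPM. Of the 43, 8 were at least 2-fold higher in type 1 and 11 in type 2 (median difference 0.33), against 21.6% and 31.1% of all measured genes. Cbln1, the cerebellin that links delta receptors to neurexins, was at 23.0 ± 45.1 against 41.1 ± 27.9 CPM (difference 2.74, detected in 1 and 5 neurons), with 103 CPM in 8-2 and at most 7.74 CPM in the other type 1 neurons.

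All 3 neurexin genes, whose products are presynaptic partners of the cerebellins, had the higher mean in type 1, and 1 did so by at least 2-fold (median -0.88). Nrxn3 was at 93.6 ± 86.7 against 34.5 ± 59.0 CPM (difference -2.24) and Nrxn2 at 74.1 ± 76.2 against 27.7 ± 31.2 CPM (difference -0.88). The 15 measured scaffold and trafficking genes split into 7 toward type 1, 2 of them by at least 2-fold, and 8 toward type 2, 1 of them by at least 2-fold (median 0.04). The 2 with the largest differences were Grip2 (25.5 ± 30.4 against 4.23 ± 9.40 CPM, difference -2.87) and Grip1 (105 ± 159 against 11.1 ± 16.5 CPM, difference -2.57), paralogs whose PDZ domains bind glutamate receptor tails. In both the ranges overlapped.

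Among 11 measured genes of editing and modification, 3 were at least 2-fold higher in type 1 and 2 in type 2 (median -0.17). The 2 protein kinase C genes in that list lay apart in opposite directions. Prkca was at 0 to 0.932 CPM in type 1 and 24.6 to 68.5 CPM in type 2 (0.497 ± 0.382 against 42.0 ± 16.3 CPM, difference 4.81), so every type 2 neuron exceeded every type 1 neuron. It shares 30 exon bases with Apoh on the opposite strand, which had 1 count. Prkcb was at 310 to 564 CPM in type 1 and 1.01 to 246 CPM in type 2 (440 ± 98.1 against 96.6 ± 90.9 CPM, difference -3.19), with every type 1 neuron above every type 2 neuron. Such separation was found in 1.44% of measured genes with type 2 above and in 0.587% with type 1 above.

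In the other ionotropic families the list counts were small. Of 4 AMPA receptor genes 2 were at least 2-fold higher in type 2 and 0 in type 1 (median 0.99), with Gria3 at 1.67 ± 3.18 against 129 ± 99.9 CPM (difference 5.07) and Gria4 at 64.4 ± 60.0 against 87.2 ± 72.6 CPM (difference 1.66). Of 5 measured NMDA receptor genes 2 were at least 2-fold higher in type 1 and 3 in type 2 (median 1.08), with Grin3a at 234 ± 166 against 60.2 ± 82.2 CPM (difference -4.50) and Grin2b at 73.0 ± 48.9 against 31.4 ± 23.9 CPM (difference -1.36). The Grik1 difference of -6.57 was larger in size than that of each of these 9 measured AMPA and NMDA genes.

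**Figure D3:**
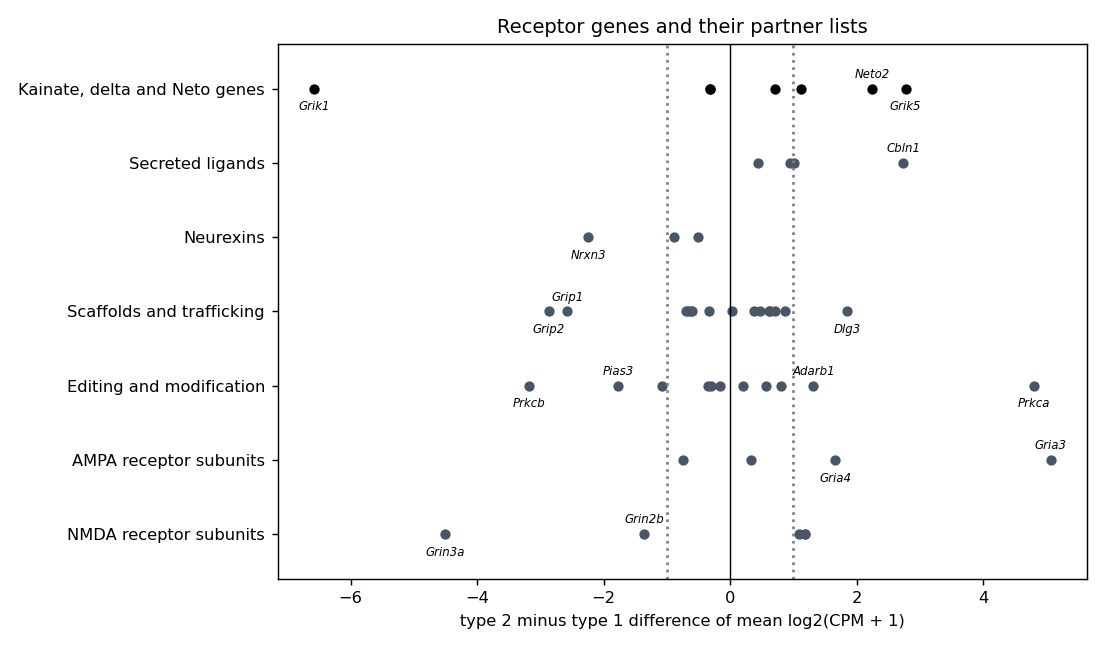
Difference in log2(CPM + 1), positive where type 2 had the higher mean, on the horizontal axis for the 7 measured receptor and Neto genes in the top row and for measured genes of the 6 partner lists below. Each point is 1 gene, dotted lines mark a 2-fold difference, and names are given for the larger differences; Grik1 lies farthest to the left, and Gria3 and Prkca lie farthest to the right.

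Genes whose levels followed a member most closely over the 10 neurons were named by the Pearson correlation of log2(CPM + 1), as a description, among 8386 genes detected in at least 3 neurons. For Grik1 they were Tshz3, a zinc finger homeobox gene (r = 0.954), Prrxl1, a homeobox gene of sensory relay neurons (0.942), and Slit1, an axon guidance ligand (0.919). Type 1 and type 2 levels were 98.4 ± 86.8 and 1.25 ± 1.69 CPM for Tshz3, and 96.2 ± 97.1 and 0.0287 ± 0.0427 CPM for Slit1. For Grik5 the closest were the signalling adaptor Grb10 (0.953), the complex I subunit Ndufb10 (0.952) and the SNAP-25 relative Snap47 (0.941), all detected in all 10 neurons. For Grik2 they were the kinases Map3k12 (0.901) and Taok1 (0.899) and the signal transducer Smad1 (0.898). For Neto2 they were Jakmip2 (0.922), the mitochondrial ribosomal gene Mrps5 (0.914) and Smad2 (0.898). The points of such a correlation share each neuron's library, depth and firing type.

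The differences of the 7 measured genes were recomputed under 22 alternatives. Grik1 was negative and Grik5 positive in all 22, each by at least 2-fold, with ranges of -8.92 to -3.95 and 1.64 to 3.53. Grik4 was positive in all 22 but reached 2-fold in 4. The remaining 4 genes each changed sign at least once: Grid1 in 6 alternatives, Grik2 in 5, and Neto1 and Neto2 in 1 each.

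**Figure D4:**
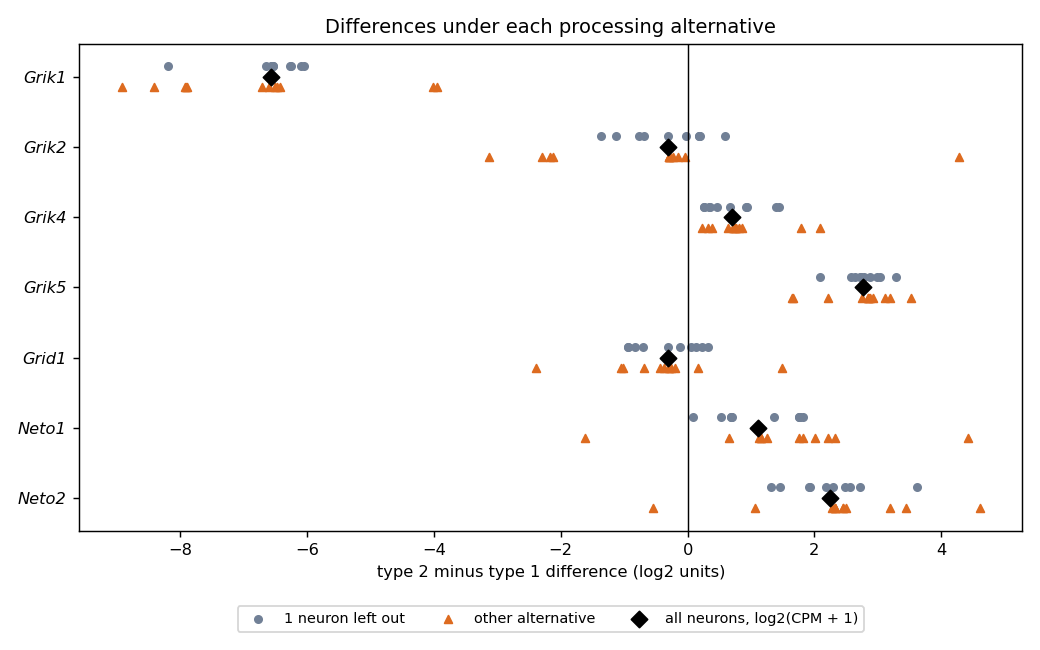
Type 2 minus type 1 difference in log2 units for each of the 7 measured genes, with the black diamond for all neurons on the log2(CPM + 1) scale, grey points for each neuron left out in turn and orange triangles for the other alternatives. Grik1 lies between -8.92 and -3.95 and Grik5 between 1.64 and 3.53, while the points of Grik2, Grid1, Neto1 and Neto2 fall on both sides of 0.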

How the data were processed

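The deposited files, 1 per neuron, hold whole-number read counts per Ensembl gene, with no normalization, per the file headers and the values. Per the submitters' processing notes, cutadapt 1.13, STAR, HTSeq 0.6.1p1 and DESeq2 were used with mm10; the annotation release and the strand option were not given in the sources used here. CPM was computed from each library's summed counts, and lengths and coordinates came from GENCODE M21 (GRCm38). Python 3.11.15, scipy 1.17.1 and biopython 1.88 were used, with edgeR 4.0.16 and DESeq2 1.42.0 for alternative scalings only. No library was a copy of another (in 45 pairs, chi-square over its degrees of freedom was at least 559). The difference procedure was tested only on counts simulated without variation between cells beyond counting error, so a spread like that of the members was not covered. The members and lists were chosen with earlier results of these data known. The text names all 8 members, from each partner list the 2 genes that differ most, if 3 or more neurons of 1 type pass detection, and for members detected in at least 3 neurons the 3 genes with the highest correlation, leaving out predicted, ribosomal protein and pseudogene entries. Klhl17 was not used here, and 2 genes that this rule names are not reported here. Alternatives covered pseudocount, scaling, depth, averaging, filters and subsets of neurons; those for shares and for detection in subsets were chosen after seeing the data.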

Additional observations from a re-analysis of the deposited data

Results flagged for a closer look

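Grik1 in type 1 was set off by 8-2, whose gap to the next neuron was 0.896 of the group's range of log2(CPM + 1), above the limit of 0.71 for 5 neurons. In type 2, Grik1 in 10-1 (0.336 CPM, 14 counts) was set off by a gap of 0.766 of the range, within a group whose levels all lay below 1 CPM. The limit flags about 1 in 20 groups of normally distributed values, and 14 groups were examined. Levels with ties at 0, such as those of Grik1 in type 2, need not follow that rate.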

How the results depend on the processing

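No paired analysis was possible because 9 is the only first number in the neurons' names that both firing types share (9-1 in type 1, 9-2 and 9-4 in type 2), and the labels do not say whether it marks an animal or slice. Among those 3 neurons Grik1 was at -7.89, Grik5 at 3.19, Neto1 at 4.42 and Neto2 at 4.60. With the ratio of mean CPM, Neto2 was at -0.54, and without 6-2, 9-2 and 9-4 Neto1 was at -1.62. The number of members higher in type 1 was 3, was 1 in the libraries under 20000000 counts and ranged from 1 to 3 when each neuron was left out (1 without 9-1). It was 4, against 3 higher in type 2, both with the ratio of mean CPM and without 6-2, 9-2 and 9-4. Genes at least 2-fold higher in type 1 and type 2 numbered 2574 and 3713, 1238 and 1624 with a pseudocount of 10 CPM, and 3138 and 2833 with the ratio of mean CPM. Partner genes at least 2-fold higher in type 1 and type 2 numbered 8 and 11, 5 and 5 with that pseudocount and 13 and 7 with the ratio of mean CPM. Among neurons with first number 9, 21 partner genes were at least 2-fold higher in type 2, as were 4526 of all measured genes (3713 over all neurons). Without 6-2, 9-2 and 9-4, 16 partner genes were at least 2-fold higher in type 1, as were 3715 of all measured genes (2574 over all neurons). Of the 25006 genes, 5315 to 7073 passed detection in each type 1 neuron and 5993 to 7367 in each type 2 neuron. Detections of members, out of 40 pairs of gene and neuron in each type, numbered 17 in type 1 and 19 in type 2, and 8 and 7 at 50 CPM. In subsets, which hold fewer neurons, they were 5 (type 1, higher depth), 5 (type 2, lower depth), 3 and 8 (first number 9) and 6 (type 2, without 6-2, 9-2 and 9-4). The Grik5 share of the kainate level was 56.9 percentage points higher in type 2 and the joint share of Grik1 to Grik3 was at -69.0, against 20.5 and -26.1 in the shallow libraries, where type 2 is 6-2 alone. The cause was not tested for any of these. The median difference of all measured genes, 0.24, was 0.39 with TMM scaling, 0.08 and 0.43 with pseudocounts of 10 and 0.1 CPM, -0.05 with the ratio of mean CPM, 0.01 with medians, 0.07 and 0.69 in the deep and shallow libraries, 0.53 for first number 9, -0.11 without 6-2, 9-2 and 9-4, and 0.17 to 0.41 with 1 neuron left out. Depth limits levels near 0 to the floors given for Grik3; reads lost before sequencing are not covered.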

Other observations

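For the members with sparse detection, the genes with the closest pattern over the 10 neurons were Zfp653 (r = 0.966), Abl2 (0.944) and Dnajc25 (0.942) for Grik4, Ccdc149 (0.937) and Ppp2r3c (0.871) for Grid1, and Zfp236 (0.936), Ap5m1 (0.928) and Ddx19b (0.911) for Neto1. Type 1 and type 2 levels were 57.0 ± 66.4 and 28.8 ± 39.3 CPM for Ccdc149, and 22.5 ± 46.9 and 23.8 ± 30.5 CPM for Zfp653. Each of these members passed detection in only 3 or 4 of the 10 neurons, and no test was made.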
